A study of Mus musculus with 6 samples.

Results

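The proteasome is the protease complex that degrades ubiquitin-tagged proteins in every cell. Its genes were taken here as those with a symbol of Psma, Psmb, Psmc or Psmd and a number, without the interferon-inducible Psmb8 and Psmb9, which gave 37 genes out of 20018 with a named probe. All 37 had a probe on the array, and 35 could be tested. Of the 37, 17 encode the core particle (Psma and Psmb) and 20 the regulatory particle and its helpers (Psmc and Psmd). Psmc3ip, whose symbol begins like that of a member, encodes a partner protein of Psmc3 and was not counted as a subunit. Members were picked by symbol alone, though with earlier results of these data known.

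The core particle is a barrel of stacked rings. Its outer rings of alpha subunits form the gate, and its inner rings of beta subunits carry the cutting sites, which belong to Psmb5, Psmb6 and Psmb7. The regulatory particle has a base, whose Psmc ATPases unfold the substrate, and a lid, whose enzyme Psmd14 removes the ubiquitin chain. Dedicated chaperones assist both assemblies and leave or are degraded when assembly ends, and the transcription factor encoded by Nfe2l1 is known to raise the subunit genes together when proteasome activity falls short.

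RNA came from cultured lung fibroblasts of Mmp19 knockout mice (3 arrays) and of wild-type mice (3 arrays), Mmp19 being a matrix metalloproteinase. Every animal of both genotypes is labelled female and 11 weeks old and had received 0.08 units of bleomycin into the trachea, which damages lung tissue and is used to model fibrosis. The lungs were taken on day 21 and the fibroblasts kept in culture for 72 hours, and the series describes independent experiments. How the knockout allele was made is not stated in the labels, and the cells were cultured, so their state in the lung was not measured. The comparison addresses how fibroblasts of Mmp19 knockout mice differ from those of wild-type mice. It does not isolate loss of Mmp19, because genotype and sex or animal could not be told apart (below).

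Each one-colour array gave a spot intensity, and values below are log2 intensities minus the 75th percentile of their array, so that a value of 0 lies at that percentile and a step of 1 is a 2-fold difference. They can be compared between arrays for 1 gene, but not between genes. That percentile ranged from 160 to 388 intensity units in the knockout and from 223 to 344 in wild type. In the limma fit 598 of 12472 genes passed (adjusted p under 0.05), and 6 arrays limit the precision of every value. Mmp19 stood well above background on 0 of 3 knockout and 3 of 3 wild-type arrays and was at least 6.31-fold lower in the knockout. The limma test was of the unbounded change, -4.62 (adjusted p = 0.0160), which uses knockout values not well above background. Mmp19 was read by 1 probe, whose place relative to the deleted part is not given in the labels. Wild-type replicate 2 stood apart, with correlations of 0.94 and 0.96 to its fellow wild-type arrays, against 0.98 between those. Eif2s3y and Ddx3y, genes of the Y chromosome, gave signal well above background on each of the 6 arrays, against the label of female sex, and Xist was well above background on 3 knockout and 0 wild-type arrays, so sex or animal and genotype cannot be told apart. Fibroblast markers were well above background on all arrays for 9 of 10 genes (summed scaled signal 1797 to 1839 in knockout and 952 to 1495 in wild type). Their changes were positive for 8 and negative for 2, Dcn (-0.75) and Vim (-0.11). Col1a1 (+1.47, limma adjusted p = 0.0307) and Col1a2 (+1.25, 0.0415) passed as higher in the knockout. The 4 mesothelial markers were higher in the knockout (summed scaled signal 32.3 to 83.0, against 1.64 to 8.42 in wild type). Of 5 smooth muscle and pericyte markers, Myh11 (+2.98, limma adjusted p = 0.0109) and Des (+2.49, 0.0316) were higher in the knockout. Acta2 (+0.83, 0.530) did not pass, nor did Cspg4, which was lower (-1.22, 0.430). Rgs5 was also lower (-1.37) and was not tested. The 5 summed to 300 to 358 in knockout and 57.2 to 423 in wild type. The part of these cells in what follows was not tested. Of 6 epithelial markers 4 (Cdh1, Sftpb, Sftpc and Scgb1a1) were well above background on all 6 arrays, and none of these passed. Epcam and Nkx2-1 were not well above background on any array. The epithelial markers summed to 29.5 to 56.2 in knockout and 36.6 to 45.7 in wild type. Leukocyte markers summed to 36.4 to 94.6 in knockout and 48.7 to 62.7 in wild type. In such cultures fewer cells of a type and less RNA per cell cannot be told apart.

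None of the 35 tested proteasome genes passed the threshold in either direction, where 4.79% of all genes did (3.3% higher and 1.49% lower). At an unadjusted p under 0.05 there were 2 members, Psmb7 and Psmc6, both higher in the knockout, and such a p was reached by 21.8% of all genes (14.4% with a positive change). A fit with array weights called 2 members, Psmc6 (higher) and Psmd10 (lower), and 21.8% of all genes. The weights were 4.86 for knockout replicate 3 and 2.26 for wild-type replicate 3, against 0.29 to 0.76 for the other arrays. That fit therefore leaned on 1 array in each group. The changes of the members ran from -0.59 (Psmd10) to +0.71 (Psmc6) on the log2 scale, that is from 0.66 to 1.64 times the wild-type level. Of the 35, 24 were positive and 11 negative, with a median change of 0.10, and the median over all 12472 genes was 0.08.

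The knockout and wild-type groups did not overlap for 7 members (20%), 6 higher and 1 lower, where this held for 31% of all genes tested (21.2% higher and 9.79% lower). Changes smaller than 0.5 were found for 31 of 35 members (88.6%), against 63.8% of all genes. The 95% interval of the change lay within 1 log2 unit of zero for 31 members (88.6%), against 46.2% of all genes. A 2-fold change is outside the interval for those 31 members. The intervals of Psmb7, Psmc6, Psmd6 and Psmd10 reached past 1 or -1. Standard errors of the members ran from 0.18 to 0.29, with a median of 0.22, against 0.27 for all genes. All 35 tested members were well above background on all 6 arrays, which was not so for every gene they are set against.

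**Figure D1:**
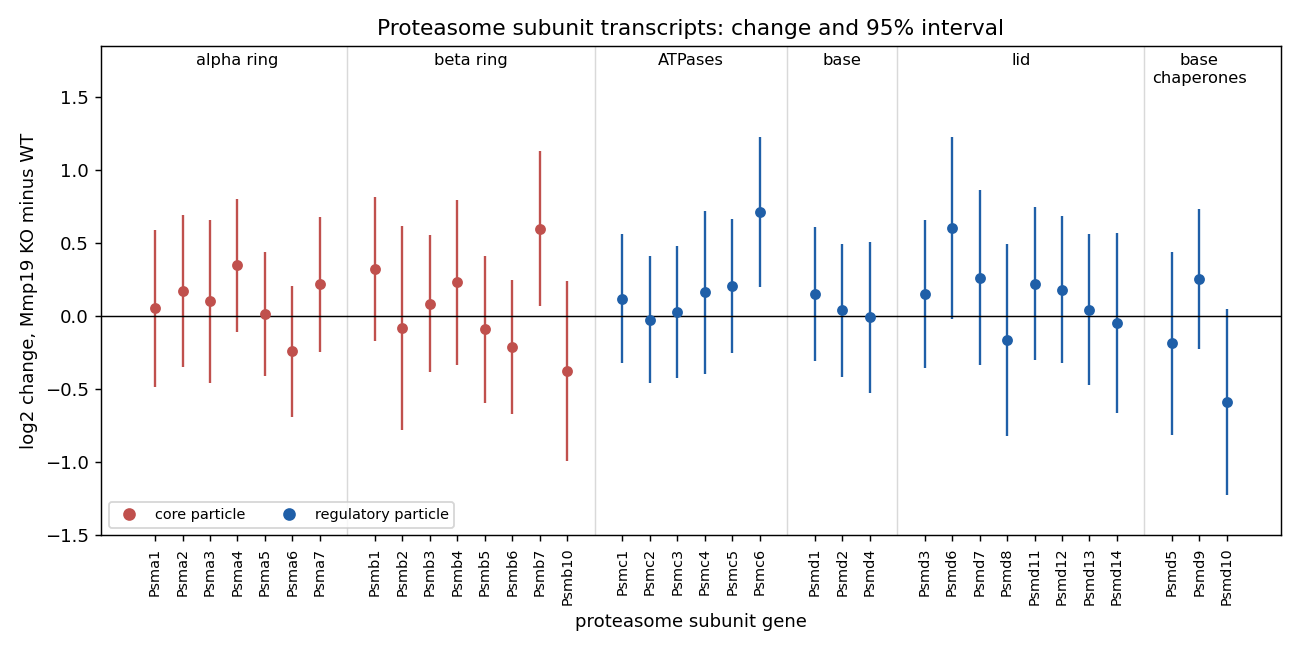
Log2 change (knockout minus wild type) of the 35 tested proteasome genes on the vertical axis, by structural group along the horizontal axis; points are moderated estimates from 3 arrays per group and bars their 95% intervals. The points lie between -0.59 and 0.71, and only the intervals of Psmb7 and Psmc6 leave out zero.

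**Figure D2:**
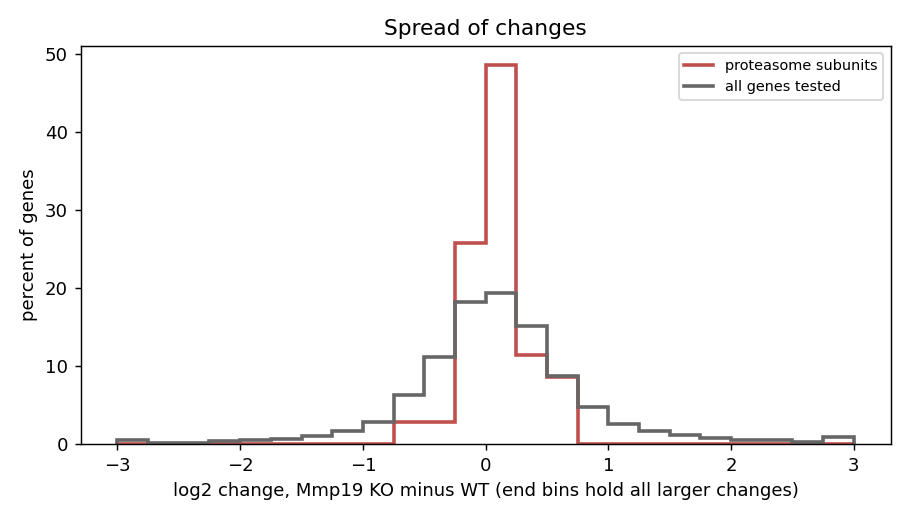
Percent of genes (vertical axis) in each bin of log2 change, knockout minus wild type (horizontal axis), for the 35 tested proteasome genes and for all 12472 genes tested. All 35 proteasome genes fall within 1 log2 unit of zero, against 86.5% of all genes.

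A promoter element of the subunit genes was looked up because Nfe2l1 acts through it. Of the 37 members 30 had a promoter in the RefSeq table (GRCm38.p6), and the antioxidant response element core, TGACNNNGC on either strand, stood within 250 bases before the start in 5 of them (16.7%), against 11.5% of all genes with a promoter. These were Psmb5, Psmb6, Psmc6, Psmd9 and Psmd12. The stretches around it that lie outside the annotated gene are shown with the match in capitals, as read on the strand of the gene, because they include Psmc6, which has the highest change of all members, and a catalytic subunit.
Psmb5, chr14:54618009-54618067, minus strand: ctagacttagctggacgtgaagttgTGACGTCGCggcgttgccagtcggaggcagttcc
Psmc6, chr14:45329574-45329630, plus strand: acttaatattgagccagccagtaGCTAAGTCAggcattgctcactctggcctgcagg
Psmd9, chr5:123228134-123228189, plus strand: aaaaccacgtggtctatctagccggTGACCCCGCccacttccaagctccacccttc
Psmd12, chr11:107479278-107479314, plus strand: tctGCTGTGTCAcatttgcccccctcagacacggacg
In Psmc6 and Psmd12 the match is on the opposite strand. A CCAAT box on either strand was found in 12 of the 30 (40.0%), against 37.5% of all genes. These are matches of letters only, and no binding was measured. The match began 9 bases before the start in Psmb6, 31 in Psmd9, 47 in Psmb5, 227 in Psmc6 and 247 in Psmd12, and their changes were -0.21, +0.25, -0.09, +0.71 and +0.18.

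The alpha subunits, which build the outer rings and the gate of the core, had changes from -0.24 to 0.35. Of 7 tested alpha genes 6 had a positive and 1 a negative change, with a median of 0.10. Psma4 had values of 3.91, 3.83 and 3.88 on the knockout arrays, against 3.33, 3.66 and 3.58 on the wild-type arrays. All 3 knockout values lay above all wild-type values, for a change of +0.35 ± 0.19 (SE, n = 3 per group; limma adjusted p = 0.351). A second probe of Psma4 gave +0.27.

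Psma6 ran the other way, with 5.03, 4.96 and 5.11 in knockout cells, against 5.20, 5.19 and 5.44 in wild-type cells. The groups did not overlap, and the change was -0.24 ± 0.19 (adjusted p = 0.504). It was the one member for which every knockout array lay below every wild-type array. Between these stood Psma7 (+0.22), which also separated the groups, Psma2 (+0.17), Psma3 (+0.10), Psma1 (+0.05) and Psma5 (+0.01). Psma5 was among the steadiest, with means of 6.04 ± 0.08 in knockout and 6.03 ± 0.01 in wild-type cells (SD, n = 3 each). Psma8, an alpha subunit used in testis in place of Psma7, was not well above background on any array and was not tested.

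Of the beta subunits, which form the inner rings, 8 were tested, and 4 changes were positive and 4 negative. The 3 genes of the standard cutting sites had no common direction. Psmb7, which carries the trypsin-like site, had 3.79, 3.63 and 3.86 on the knockout arrays, against 3.1, 2.91 and 3.48 on the wild-type arrays. Every knockout array lay above every wild-type array. The change was +0.60 ± 0.22 (SE, n = 3 per group), with a 95% interval from 0.07 to 1.13 and an adjusted p of 0.188 in limma. Each of the 3 slides carried a knockout and a wild-type array, and within them it was +0.69, +0.72 and +0.39.

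Psmb5, which carries the chymotrypsin-like site and is the main target of proteasome inhibitor drugs, had 7.70, 7.88 and 7.69 in knockout and 7.59, 8.08 and 7.87 in wild-type cells. The groups overlapped, with a change of -0.09 ± 0.21 and an interval from -0.59 to 0.41. Its other probe gave +0.20, so the sign depended on the probe. Psmb6, with the caspase-like site, had 7.33, 7.58 and 7.25 in knockout and 7.66, 7.57 and 7.57 in wild-type cells. These overlapped on knockout replicate 2, and the change was -0.21 ± 0.19 (adjusted p = 0.566). Of the beta subunits with no cutting site of their own in the mature core, Psmb1 changed by +0.32, Psmb4 by +0.23, Psmb3 by +0.09 and Psmb2 by -0.09.

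Psmb10, which takes the place of Psmb7 in the immunoproteasome, had 3.80, 4.10 and 3.94 on the knockout arrays, against 4.62, 3.86 and 4.49 on the wild-type arrays. Wild-type replicates 1 and 3 were above all knockout arrays, and wild-type replicate 2 lay among them. The change was -0.38 ± 0.26 (adjusted p = 0.451), and -0.61 without wild-type replicate 2 (adjusted p = 0.137). In the other inducible subunits, which are not among the 37, wild-type replicates 1 and 3 were again highest, and wild-type replicate 2 lay below all knockout arrays. Psmb8, the counterpart of Psmb5, had -0.66, -0.79 and -0.46 in knockout and 1.43, -1.66 and 1.01 in wild-type cells. Psmb9, the counterpart of Psmb6, had -1.60, -1.22 and -1.38 in knockout and 0.29, -1.71 and -0.23 in wild-type cells. Neither passed over all arrays (changes of -0.90 and -0.85, adjusted p = 0.538 and 0.375), and both passed in limma without wild-type replicate 2 (-1.86 and -1.43, adjusted p = 0.0136 and 0.0307), a fit in which 4.47% of all genes were lower. The 6 cell cycle markers summed to 36.3 to 54.3 on the knockout arrays and 27.5 to 95.3 on the wild-type arrays, lowest on wild-type replicate 2, and their part was not tested. Psmb11, the beta subunit of the thymus proteasome, was not well above background on any array and was not tested.

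The 6 ATPases of the base, which open the gate and thread the substrate into the core, included the member with the highest change. Psmc6 had 4.29, 4.73 and 4.33 in knockout cells, against 3.56, 3.82 and 3.83 in wild-type cells. All knockout values were higher, by +0.71 ± 0.22 (SE, n = 3 per group; interval 0.20 to 1.23). The adjusted p was 0.124, the smallest among the 35 members, and 0.157 with a slide block. The differences on the 3 slides were +0.73, +0.90 and +0.50.

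Psmc2, at the low end of this group, had 6.64, 6.47 and 6.44 in knockout and 6.49, 6.55 and 6.59 in wild-type cells. The groups overlapped fully, at -0.03 ± 0.18 with an interval from -0.46 to 0.41, and its second probe gave -0.02. The remaining ATPases were Psmc5 (+0.21), whose groups did not overlap, Psmc4 (+0.16), Psmc1 (+0.12) and Psmc3 (+0.03). Second probes of Psmc1 and Psmc3 gave +0.38 and +0.26. Psmd1 and Psmd2, the large scaffolds of the base, changed by +0.15 and +0.04, and Psmd4, a receptor for ubiquitin chains, by -0.01. All 3 of these overlapped between the groups.

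The lid, which docks on the base and houses the deubiquitinase, had 8 tested genes with a median change of 0.16. Psmd6 had 5.27, 4.97 and 5.28 on the knockout arrays, against 4.10, 4.76 and 4.84 on the wild-type arrays. Each knockout value was above each wild-type value, and the lowest value was that of wild-type replicate 1. The change was +0.60 ± 0.26 (adjusted p = 0.249), and +1.16, +0.21 and +0.44 on the 3 slides. It was 0.37 without wild-type replicate 1.

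Psmd8 lay at the low end of the lid, with 3.39, 4.06 and 3.79 in knockout and 3.51, 4.06 and 4.16 in wild-type cells. The groups overlapped, and the change was -0.16 ± 0.28. Psmd14, the deubiquitinase, changed by -0.05 ± 0.26 (interval -0.66 to 0.57). The other lid genes were all positive, with Psmd7 at +0.26, Psmd11 at +0.22, Psmd12 at +0.18, Psmd3 at +0.15 and Psmd13 at +0.04, and all 5 overlapped between the groups.

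Psmd5, Psmd9 and Psmd10 carry subunit names but encode chaperones that help the ATPase ring assemble and are absent from the finished particle. Psmd10, also called gankyrin and encoded on the X chromosome, had 2.07, 2.15 and 2.36 in knockout cells, against 3.13, 2.29 and 2.94 in wild-type cells. Wild-type replicates 1 and 3 stood above all knockout arrays, and replicate 2 was just below knockout replicate 3. The change was -0.59 ± 0.27 (SE, n = 3 per group; adjusted p = 0.266), the lowest of all members, and -0.84 without wild-type replicate 2 (adjusted p = 0.0713). Its second probe gave -0.48. Psmd9 had 1.56, 1.63 and 1.75 in knockout and 1.39, 1.20 and 1.60 in wild-type cells. These overlapped, with a change of +0.25 ± 0.20 on this probe and +0.61 on a dimmer one (adjusted p = 0.208). Psmd5 changed by -0.19 ± 0.26.

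Core and regulatory particle were close to each other. The median change was 0.09 over the 15 tested core genes and 0.13 over the 20 regulatory genes, a difference of -0.05. Within the slides this difference was 0.00, -0.03 and -0.06. It was positive without knockout replicate 3 (0.01) and without wild-type replicate 2 (0.07). Without the chaperones and the tissue-specific or inducible members, which left 31 genes, it was -0.06. The members overlap in function and share arrays, so these medians are descriptions with no test.

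Across arrays the members moved in part together. Within its genotype, wild-type replicate 3 had 33 of 35 members above their group mean and wild-type replicate 1 had 8. In the knockout the counts were 12, 22 and 18 for replicates 1, 2 and 3. The median deviation from the group mean was -0.09, 0.08 and 0.00 on the knockout arrays and -0.13, 0.05 and 0.14 on the wild-type arrays. Over all genes it was -0.08, 0.12 and -0.02 on the knockout arrays and 0.06, -0.13 and 0.12 on the wild-type arrays. The sign was shared on knockout replicates 1 and 2 and wild-type replicate 3, and was opposite on the other arrays. The median change of the members within the 3 slides was 0.11, 0.19 and -0.04, with 26, 26 and 15 of 35 positive.

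**Figure D3:**
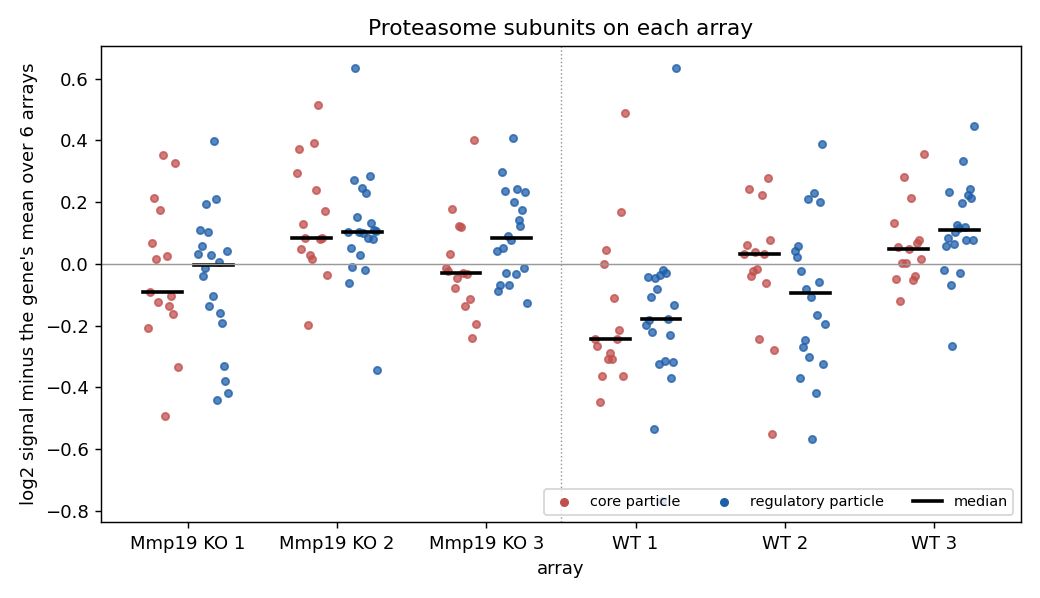
Each point is 1 of the 35 tested proteasome genes on 1 array, as its log2 signal minus its mean over 6 arrays (vertical axis), with core and regulatory genes side by side and black bars for medians. The medians range from -0.24 to 0.11, and both are lowest on wild-type replicate 1.

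The members' median was positive in 17 of 19 alternatives and negative in 2, and its sign could change with the scaling. Scaling each array to the 75th percentile of probes detected on all arrays moved the median of all genes by over 0.1, to -0.03, and that of the members to -0.02, with 17 of 35 positive. Such a scaling shifts the changes of all genes alike, so the gap between the members and the median of all genes stayed at 0.02 by construction. Over 19 alternatives this gap ran from -0.05 to 0.08 and was positive in 16. Some of these alternatives, such as the slide block, leave the changes as they were and so repeat the main value.

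Of 50 tested genes that assemble, activate, regulate or feed the proteasome, 0 rose and 2 fell, where 4.79% of all genes passed and 1.49% were lower. The assembly factors of the core, which act before the particle is complete, held both. Psmg2, which pairs with the product of Psmg1 to build the alpha ring, had 1.03, 1.35 and 0.88 in knockout cells, against 3.31, 2.92 and 3.04 in wild-type cells. The groups were far apart, and Psmg2 fell by 2.0 on the log2 scale (SE 0.22, n = 3 per group; limma adjusted p = 0.00873). On the 3 slides the differences were -2.28, -1.56 and -2.16, and a slide block gave an adjusted p of 0.0467, where 1.8% of all genes passed. It was read by 1 probe. The Psmg2 call was lost without knockout replicate 3 (0.0664) and without wild-type replicate 3 (0.0600).

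Pomp, whose product brings beta subunits onto the alpha ring, had 4.33, 4.02 and 4.03 in knockout and 5.56, 5.96 and 5.78 in wild-type cells on its brighter probe. This probe fell by 1.64 (SE 0.21, n = 3 per group; limma adjusted p = 0.0142), with no overlap. The call was lost with slide as a block (0.0597), without knockout replicate 3 (0.0949) and without wild-type replicate 3 (0.0786). A second Pomp probe to the same transcript had 1.66, 2.20 and 1.91 in knockout and 1.87, 2.10 and 2.31 in wild-type cells. It overlapped, at -0.17 ± 0.23 (adjusted p = 0.724), so the probes of Pomp disagreed, and their mean gave -0.90. The other assembly factors of the core, named after their values were seen, were Psmg3 at -0.50 ± 0.19 (adjusted p = 0.202), Psmg4 at -0.44 ± 0.22 and Psmg1 at -0.36 ± 0.18, with 0.00 on a second Psmg1 probe. All 5 had a negative change on the probe that stands for the gene, where 56.3% of all genes had a positive one, and 2 of 5 passed as lower, against 1.49% of all genes. The group was brought forward because it held both calls, so these counts are descriptions with no test.

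**Figure D4:**
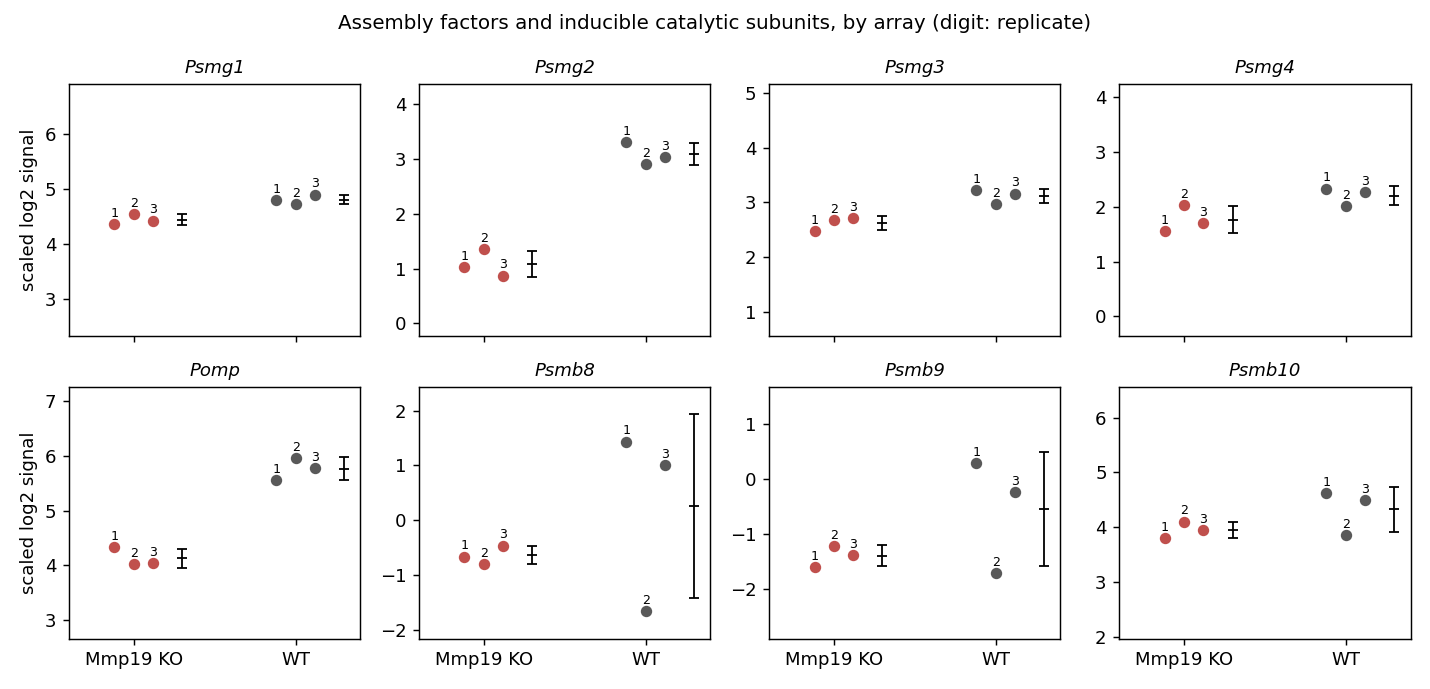
Scaled log2 signal (vertical axis, of equal length in each panel) of 5 core assembly factors and the 3 inducible catalytic subunits in knockout (left) and wild-type (right) cells; points are arrays with their replicate number and bars mean ± SD of 3. Psmg2 and Pomp (brighter probe) separate the groups most widely, Psmg3 and Psmg1 (brighter probe) also separate them, and Psmg4 overlaps. Wild-type replicate 2 lies beside or below the knockout arrays for Psmb8, Psmb9 and Psmb10.

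The other partner groups held no call on the probe that stands for the gene. A dimmer probe of Ufd1, a cofactor of the unfoldase, passed at +1.31 ± 0.27 (SE, n = 3 per group; limma adjusted p = 0.0437, and 0.0860 with a slide block), and the brighter Ufd1 probe gave +0.20 ± 0.22 (adjusted p = 0.650). Among activators and the inhibitor, Psme1, a subunit of the interferon-inducible cap, changed by +0.79 ± 0.38 (adjusted p = 0.286), with wild-type replicate 2 at 2.83 and the other wild-type arrays at 4.21 and 4.04, and Psmf1, an inhibitor, by +0.40 ± 0.28. Among proteins bound to the regulatory particle, the deubiquitinase Uchl5 changed by -0.48 ± 0.20 (0.239) and its receptor Adrm1 by +0.35 ± 0.19 (0.334). Nfe2l1 itself had 0.37, 0.04 and 0.77 in knockout and -0.30, -0.91 and 0.04 in wild-type cells. The knockout values were the higher ones, though the nearest pair both round to 0.04, and the change of +0.78 ± 0.32 did not pass (adjusted p = 0.220). Ddi2, the protease that activates its product, changed by -0.40 ± 0.27.

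Of the ubiquitin genes, the polyubiquitin gene Ubb changed by +0.48 ± 0.26. Among the shuttles and unfoldase cofactors, Ubqln2 changed by +0.79 ± 0.25 (adjusted p = 0.129) and Nploc4 by +0.43 ± 0.20. On the interferon route, Tapbp, a helper of peptide loading, changed by +1.0 ± 0.29 (0.114) and Ifngr1, a receptor chain for interferon gamma, by +0.37 ± 0.21. None of these passed over all arrays with equal weights. With array weights, which leaned on replicate 3 of each group, 21.8% of all genes passed. Ubqln2 (+0.61, limma adjusted p = 0.0348), Tapbp (+0.76, 0.0242), Uchl5 (-0.54, 0.0421) and Psmg4 (-0.53, 0.0492) were among them, as were Psmb8 and Psmb9.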

How the data were processed

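Total RNA (0.5 µg) was Cy3-labelled for 6 Agilent arrays of 1 colour, per the labels' protocols. The deposited scanner tables hold spot intensity: per the file headers, Agilent Feature Extraction 10.7.3.1 produced a background-subtracted processed intensity on a design annotated on mm9. The submitters' processing notes name version 9.1. A further deposited table gives the authors' log2 values for 35844 probes; each of its columns correlated with its own array's log2 processed intensity at 0.996 or more. The column medians ran from 5.51 to 5.76, and how arrays were centred stays unknown, so it served as an alternative.

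Control spots and outlier-flagged spots were left out and spots of a probe averaged (55681 probes, 259 lacking a value on some array). No spot was saturated. Each array's 75th percentile of log2 processed intensity was subtracted. The 24217 probes that every array of 1 group or both flagged as well above background were tested with limma 3.58.1 (R 4.3.3; lmFit, eBayes), knockout minus wild type, two-sided, with Benjamini-Hochberg over all probes, threshold 0.05. The fit was tested on simulated data. Probes were named by unversioned RefSeq accession on GRCm38.p6 (26413 matched, 47.4%), and a gene by its brightest tested probe. For Mmp19 the fold is a bound: the wild-type mean against the knockout mean of, per array, the higher of its own signal and the lowest signal of a probe well above background.

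Members and lists were chosen with earlier results of these data known. All members were named with their change; array values are given for the highest and lowest of each structural group, for the catalytic and inducible beta subunits and for partners past the threshold, and otherwise the 2 partners of smallest p in each group were named, except for an item that is not reported here.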

Additional observations from a re-analysis of the deposited data

How the results depend on the processing

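The count of 0 proteasome members past the threshold was the same in 18 of 19 alternatives, the exception being gene-by-gene array weights (2 members, Psmc6 at +0.60 with adjusted p = 0.0386 and Psmd10 at -0.61 with adjusted p = 0.0467). That fit, which leaned on replicate 3 of each group, called 5073 probes and 8 partner genes. The default estimate of array weights did not converge and was not used. The median of the members ran from -0.02 to 0.15 and the core minus regulatory difference from -0.09 to 0.07, both within the spread between arrays. The count of probes past the threshold, 1124, was 633 with normexp (offset 50, on the median spot signal), 113 with no filter on dim probes, 650 over probes well above background on all 6 arrays, and 385 with slide as a block. Slide and replicate number coincide, so the replicate block also gave 385 probes; deviations within the slides correlated at 0.10, -0.02 and 0.21, and the numbers were not taken as pairs. Partner genes past the threshold numbered 0 with no filter and 1 with slide or the replicate block, and no member was gained or lost with the block. Leaving out 1 array gave between 108 and 1913 probes, between 0 and 5 partners and 0 members: 108 probes when knockout replicate 3 was left out, 114 for wild-type replicate 3 and 1913 for wild-type replicate 2, when Psmb8, Psmb9 and Nlrc5 joined Psmg2 and Pomp. The share of higher probes was 62.0%, and 51.9% (607 higher, 562 lower) when the 75th percentile was taken over probes that all arrays detected. It was 41.4% when wild-type replicate 2 was left out (792 higher, 1121 lower) and 75.4% when wild-type replicate 3 was. Psmg2 passed in 15 of 18 alternatives (adjusted p 0.000471 to 0.0668) and Pomp in 13 of 18 (0.000753 to 0.0949). With no filter both were lost (0.0668 and 0.0930). Mmp19 passed in 12 of 17; it did not with no filter (0.0551), under normexp (-1.40, 0.0749), or when knockout replicate 2 (0.0512), knockout replicate 3 (0.0903) or wild-type replicate 3 (0.0782) was left out. With 3 arrays a group, an increase of 0.5 log2 units lies within the intervals of most members. A decrease of 0.5 lies within the intervals of a minority, among them Psmb10 and Psmd10.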
